A study of Mus musculus with 3 samples.

Results

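Genes of the tumour necrosis factor (TNF) receptor superfamily were examined in mouse bone-marrow-derived macrophages. The 10 genes were chosen by name (Tnfrsf1a, Tnfrsf1b, Fas, Tnfrsf9, Tnfrsf10b, Tnfrsf11a, Tnfrsf12a, Tnfrsf14, Tnfrsf21 and Ltbr), out of 55536 mouse genes quantified. That choice was made with earlier results of these data known. All 10 were found in the gene quantification. The cells were primary macrophages from bone marrow of the inbred strain C57BL/6J, exposed to the stimulus at 100 ng/mL for 180 min. Polyadenylated RNA sequencing gave 3 libraries of 1 group, numbered in the labels as biological replicates 1 to 3. The description in the labels calls the stimulus Lipid A, the lipopolysaccharide component recognised by Toll-like receptor 4, but lipoprotein A is written in the source name and as the treatment. Sex and age were not collected, per the labels, and the donor identifier is shared by the 3 libraries, which leaves it unstated whether the replicates came from separate animals. No untreated group was analysed here, and none of the values below is a response to the stimulus: genes are compared with each other within libraries, and libraries with each other.

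Receptors of this family bind trimeric ligands of the TNF superfamily through cysteine-rich repeats outside the cell. Receptors with a cytoplasmic death domain (Tnfrsf1a, Fas, Tnfrsf10b and Tnfrsf21 among these genes) recruit adaptors such as TRADD or FADD and can start cell death, while the others bind TRAF proteins and activate NF-kB and kinase pathways. In macrophages, TNF made after Toll-like receptor stimulation acts back on the cells through its receptors, RANK (Tnfrsf11a) directs differentiation into osteoclasts, and proteases such as ADAM17 release receptor ectodomains as soluble decoys.

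Expected counts of mouse genes totalled 24450338, 34641026 and 60595742 per library, in the order of the replicates. All 8 macrophage marker genes were detected (1 TPM or more in all 3 replicates; TPM, a length-scaled share of all transcripts), as were 0 of 5 T cell, 0 of 4 natural killer cell, 0 of 5 dendritic cell, 0 of 5 stromal, 0 of 4 mast cell, 1 of 5 B cell and 1 of 4 endothelial marker genes. Replicate 2 stood apart in neutrophil markers: the summed level of 8 genes was 83.3, 714 and 48.4 TPM in replicates 1, 2 and 3, with 3 of 8 detected and Ly6g at 0 counts. The 5 stromal markers, none detected in all 3 replicates, were also highest in replicate 2, at a summed 0.35, 7.20 and 0.86 TPM. Among them Dcn had 0, 176 and 1 counts. The summed level of 6 osteoclast markers was 92.7, 199 and 120 TPM, with 2 of 6 detected, mostly Acp5, which macrophages also express, and Calcr at 0 counts. In bulk RNA, fewer cells of a type and less RNA per cell cannot be told apart.

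Of the 10 receptor genes, 9 were detected, all but Tnfrsf10b. The share over all genes was 18.1%, and over protein-coding genes 42.7%. The median over the 10 genes stood 1.46 ± 0.19 (log2 of TPM + 0.1; SD, n = 3) above the median detected gene, which lay at 14.6 ± 0.535 TPM. The levels covered a wide range, between 692 TPM for Tnfrsf1b and 0.463 TPM for Tnfrsf10b, and fell into 3 tiers: Tnfrsf1b and Tnfrsf1a above 100 TPM, Tnfrsf14, Fas, Tnfrsf11a and Ltbr between 31.9 and 88.0 TPM in every library, and Tnfrsf12a, Tnfrsf21 and Tnfrsf9 between 2.58 and 10.2 TPM.

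**Figure D1:**
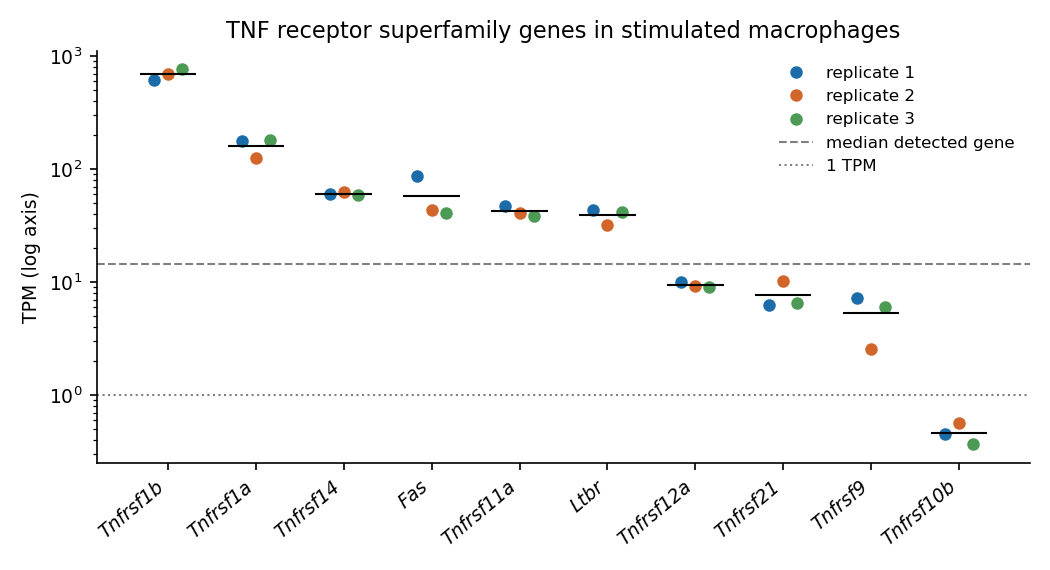
Level of each receptor gene in TPM (log axis) in the 3 libraries (points, replicates 1, 2 and 3) with the mean (bar), ordered by the mean. Tnfrsf1b lies at 614 TPM or more in each library, 6 genes lie above the median detected gene (14.6 TPM, dashed line), and Tnfrsf10b alone lies below 1 TPM (dotted line).

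The receptors of TNF itself were the most abundant of the 10 genes. Tnfrsf1b, which encodes TNFR2, a receptor without a death domain (chromosome 4, 145213463 to 145246870, minus strand, mm10), had 614, 697 and 765 TPM in replicates 1, 2 and 3, a mean of 692 ± 75.5 TPM (SD, n = 3) and rank 208 among all genes. Tnfrsf1a, which encodes TNFR1, the receptor whose death domain binds TRADD (chromosome 6, 125349362 to 125362484, plus strand), had 177, 126.5 and 180 TPM, a mean of 161 ± 30.1 TPM and rank 861. Every Tnfrsf1b value lay above every Tnfrsf1a value. The log2 ratio of Tnfrsf1b to Tnfrsf1a was 1.79, 2.46 and 2.09, a mean of 2.11 ± 0.34 (4.33-fold), and its largest value was in replicate 2, where Tnfrsf1a was lowest. A two-sided exact permutation test that flips the signs of the 3 ratios gave p = 0.25, the smallest that 3 replicates allow, so ratios are read against their SD.

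Among the receptors with a death domain, Fas was the highest after Tnfrsf1a. Fas, the receptor of Fas ligand (chromosome 19, 34290666 to 34327772, plus strand), had 88.0, 43.4 and 41.0 TPM, a mean of 57.5 ± 26.5 TPM (SD, n = 3). Replicate 1 was high and replicates 2 and 3 lay close together. Tnfrsf21, which encodes death receptor 6 (chromosome 17, 43016555 to 43089189, plus strand), had 6.23, 10.2 and 6.60 TPM, highest in replicate 2. Tnfrsf10b, which encodes the mouse receptor of TRAIL (chromosome 14, 69767472 to 69784411, plus strand), had 0.45, 0.57 and 0.37 TPM from 21, 38 and 42 counts. The log2 ratio of Fas to Tnfrsf10b was 6.60 ± 0.66 and that of Tnfrsf21 to Tnfrsf10b 3.77 ± 0.22 (SD, n = 3); both depend on the pseudocount of 0.1 TPM, with 5.23 and 2.54 at 1 TPM, and were 5.85 and 2.82 in the second quantification. Tnfrsf1a exceeded Fas by 1.56 ± 0.56 (log2) with no overlap of the libraries' values.

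Of the receptors that act through TRAF proteins, Tnfrsf14, Tnfrsf11a and Ltbr lay within 1 tier. Tnfrsf14, which encodes HVEM, the receptor of LIGHT and of the inhibitory receptor BTLA (chromosome 4, 154921933 to 154928563, minus strand), had 60.9, 62.3 and 59.5 TPM, level across the libraries. In the second quantification it had 56.9, 53.9 and 43.9 TPM, lowest in replicate 3. Tnfrsf11a, which encodes RANK (chromosome 1, 105780718 to 105847981, plus strand), had 47.3, 41.2 and 38.5 TPM. Ltbr, the lymphotoxin beta receptor gene (chromosome 6, 125306571 to 125313885, minus strand), had 43.9, 31.9 and 41.5 TPM, lowest in replicate 2. In the second quantification it had 33.9, 35.5 and 35.5 TPM, and replicate 2 was not low. Ltbr lay below Tnfrsf14, the other receptor of LIGHT, in every library, with a log2 ratio of -0.65 ± 0.27 (SD, n = 3). That direction rests on Tnfrsf14-203, a short and incomplete transcript described below: without it Tnfrsf14 had 34.2, 29.3 and 27.7 TPM, and the ratio turned to 0.35 ± 0.23, with Ltbr higher in every library.

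The remaining members of that class were lower. Tnfrsf12a, which encodes Fn14, the receptor of TWEAK (chromosome 17, 23675445 to 23677468, minus strand), had 10.1, 9.31 and 9.03 TPM. Tnfrsf9, which encodes the costimulatory receptor 4-1BB (chromosome 4, 150914562 to 150946102, plus strand), had 7.30, 2.58 and 6.00 TPM from 148, 64 and 300 counts, and replicate 2 was low. Neighbours in the order of mean levels differed by more than the SD of their log2 ratio in 4 of 9 steps: Tnfrsf1b over Tnfrsf1a, Tnfrsf1a over Tnfrsf14, Ltbr over Tnfrsf12a (2.02 ± 0.23) and Tnfrsf9 over Tnfrsf10b (3.15 ± 1.00). The ratio of Tnfrsf9 to Tnfrsf10b depends on the pseudocount, with 2.02 at 1 TPM, and was 2.29 in the second quantification. The other 5 steps between neighbours, within Tnfrsf14, Fas, Tnfrsf11a and Ltbr and within Tnfrsf12a, Tnfrsf21 and Tnfrsf9, did not exceed that spread.

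The encoded receptors differed in size and in the length of the part inside the cell. The most abundant complete coding transcript of each gene encoded between 129 residues (Tnfrsf12a) and 655 residues (Tnfrsf21). A window of 19 residues with the highest Kyte-Doolittle hydropathy, taken here as the candidate membrane span, had 24 cysteines before it in Tnfrsf1a, 22 in Tnfrsf1b, 20 in Fas, 23 in Tnfrsf14 and in Ltbr, and 6 in Tnfrsf12a. After it came 223 residues in Tnfrsf1a, 141 in Fas, 181 in Tnfrsf10b and 285 in Tnfrsf21, the genes with a death domain. Of the genes without one, Tnfrsf11a had 391, Tnfrsf1b 190, Ltbr 175, Tnfrsf9 52, Tnfrsf14 46 and Tnfrsf12a 34, so tail length did not separate the classes.

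Of 44 annotated transcripts of the 10 genes, 28 are protein-coding and 10 are retained introns, and 19 made up 10% or more of their gene's TPM on average in at least 1 of the quantifications deposited. A main transcript dominated several genes: Tnfrsf1a-201, Tnfrsf1b-201 and Tnfrsf21-201 held 99.5%, 98.7% and 99.8% of their gene's TPM, and Tnfrsf12a-201 held 93.2%. Ltbr-201 held 97.3%, but 86.5% in the second quantification, where the retained-intron transcript Ltbr-203 took 12.9%. Fas, Tnfrsf9, Tnfrsf14 and Tnfrsf11a were divided between transcripts.

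Fas had a short second transcript. Fas-201, the full-length transcript of 9 exons and 327 codons, had 55.6, 37.4 and 30.5 TPM in replicates 1, 2 and 3. Fas-202 joins the same first exons to an alternative last exon (chromosome 19, 34309036 to 34309350) that brings a stop codon soon after the junction, so it encodes 63 residues and lacks the membrane span and the death domain. It had 27.9, 5.46 and 9.16 TPM, which is 31.7%, 12.6% and 22.4% of the gene, from 124, 31.5 and 92.1 counts. In the second quantification it had 22.9, 7.12 and 7.55 TPM. Replicate 1 was highest for both transcripts in both quantifications. Fas-202 is 532 bases long, and the TPM of so short a transcript rests on few positions at which a fragment can start. The sequences below show where the transcripts part (mm10, plus strand, spliced). The first is the whole coding sequence of Fas-202, joined from exons within chr19:34290715-34309043, with the bases of its last exon up to the stop codon in capitals. The second is the junction in Fas-201, joined from exons within chr19:34307259-34315218, with the bases of the next exon in capitals.
Fas-202 coding sequence: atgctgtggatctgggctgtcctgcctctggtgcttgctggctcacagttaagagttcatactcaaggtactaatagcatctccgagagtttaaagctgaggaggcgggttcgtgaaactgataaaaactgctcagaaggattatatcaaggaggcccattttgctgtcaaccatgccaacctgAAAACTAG
Fas-201 at the same junction: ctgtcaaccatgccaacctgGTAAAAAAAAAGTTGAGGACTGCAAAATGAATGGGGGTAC

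**Figure D2:**
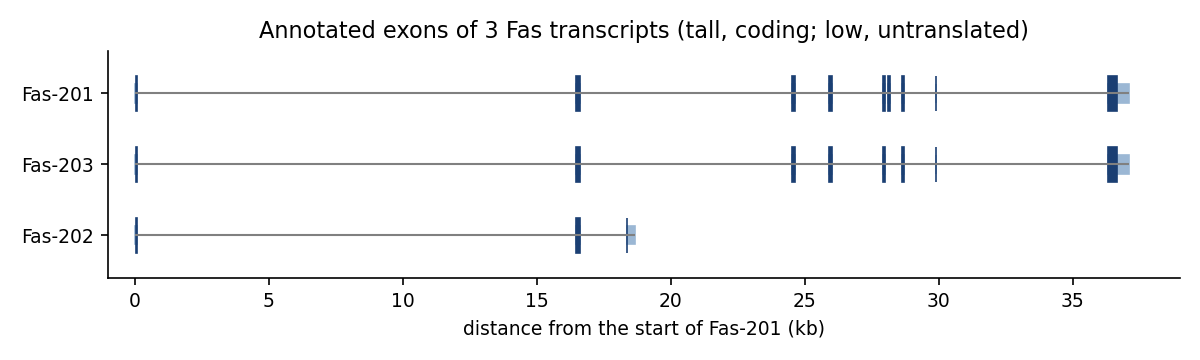
Annotated exons of Fas-201, Fas-203 and Fas-202 against the distance from the start of Fas-201 (kb); tall boxes are coding, low boxes untranslated and lines are introns. Fas-202 ends after 3 exons, and Fas-203 has every coding exon of Fas-201 but 1.

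Skipping of the membrane exon, the textbook source of soluble Fas, was hardly seen. Fas-203 lacks an exon of 54 bases that holds 46 of the 57 bases coding for the hydrophobic window. It had 0, 0 and 0.16 TPM in replicates 1, 2 and 3, and 0 in every library of the second quantification. Tnfrsf9 has transcripts of the same kind. Tnfrsf9-204 and Tnfrsf9-202 lack an exon of 135 bases that holds all 57 bases of the window, the structure known for soluble mouse 4-1BB. Tnfrsf9-204 had 0.21, 0.25 and 1.02 TPM, and Tnfrsf9-202 had 1.71, 0 and 0 TPM. In the second quantification Tnfrsf9-204 had 0, 0.26 and 0.206 TPM and Tnfrsf9-202 had 0.949, 0.0299 and 0.8 TPM. Tnfrsf9-202 was thus highest in replicate 1 in both quantifications, while the highest library of Tnfrsf9-204 differed between them. The skipped exons are given because they carry the candidate membrane spans, whose codons are in capitals (mm10, plus strand).
Fas exon, chr19:34318783-34318836: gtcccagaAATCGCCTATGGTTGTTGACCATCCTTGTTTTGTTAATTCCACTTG
Tnfrsf9 exon, chr4:150935422-150935556: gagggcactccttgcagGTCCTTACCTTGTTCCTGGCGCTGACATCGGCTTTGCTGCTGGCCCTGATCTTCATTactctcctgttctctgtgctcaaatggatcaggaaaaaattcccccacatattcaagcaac

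The main Tnfrsf9 transcripts keep that exon or, as annotated, end before it. Tnfrsf9-205, which encodes 256 residues, had 3.64, 0.94 and 2.69 TPM, and the shorter Tnfrsf9-208 had 1.74, 1.39 and 2.00 TPM in replicates 1, 2 and 3. The 529 coding bases of Tnfrsf9-208 are not a multiple of 3. It is thus an incomplete coding model, and its annotated end need not be the end of the RNA. The low value of replicate 2 lay in Tnfrsf9-205 more than in Tnfrsf9-208. RefSeq (GRCm38.p6) gives Tnfrsf9 a pair of start sites, at 150920155 and 150927999 on chromosome 4. Transcripts that start at or near the downstream site, between 150927918 and 150927999, had 5.38, 2.33 and 4.98 TPM, which is 73.7%, 90.3% and 83.0% of the gene. Tnfrsf9-204 starts at the upstream site. The 250 bases before each start are shown because the transcripts separate them. Capitals mark overlapping matches to the NF-kB (kB) consensus on either strand, found in the downstream window only. These matches lie before the start of Tnfrsf9-205 (150927999) but after that of Tnfrsf9-208 (150927918).
Tnfrsf9 upstream start, chr4:150919905-150920154: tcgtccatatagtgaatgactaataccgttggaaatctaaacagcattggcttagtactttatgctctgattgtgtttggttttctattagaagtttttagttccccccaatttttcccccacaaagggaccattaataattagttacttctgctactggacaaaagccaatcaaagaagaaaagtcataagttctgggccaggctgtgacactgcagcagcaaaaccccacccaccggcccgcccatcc
Tnfrsf9 downstream start, chr4:150927749-150927998: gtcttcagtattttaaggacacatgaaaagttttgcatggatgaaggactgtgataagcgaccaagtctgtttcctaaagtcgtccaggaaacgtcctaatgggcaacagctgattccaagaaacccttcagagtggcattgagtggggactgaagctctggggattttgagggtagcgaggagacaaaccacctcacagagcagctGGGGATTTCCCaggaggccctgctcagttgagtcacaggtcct

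Promoter windows of 250 bases were matched in RefSeq for 9 of the 10 genes, giving 10 windows; none was matched for Tnfrsf10b. A kB match was in 1 of 10 windows, against 7.25% of 32851 promoters. The AP-1 letters TGANTCA were in 2 of 10, the Tnfrsf9 downstream window and that of Fas, against 6.75%. The GC box GGGCGG was in 7 of 10, against 32.7%, and the TATA box TATAAA in 0 of 10, against 12.4%. Base composition was not matched: the 10 windows ranged from 43.2% to 73.6% GC, against a median of 52.4% over all promoters. Both strands were searched, and the kB and AP-1 matches did not overlap. In the Tnfrsf9 downstream window, both lie after the start of Tnfrsf9-208. These are letter matches, not sites of binding.

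Tnfrsf14 and Tnfrsf11a were also divided. Tnfrsf14-205 and Tnfrsf14-201, both full-length coding transcripts, had 20.1, 15.1 and 14.7 TPM and 11.5, 9.72 and 11.6 TPM. Tnfrsf14-203, an incomplete coding model of 394 bases, took 26.7, 33.0 and 31.8 TPM, which is 50.1 ± 5.47% (SD, n = 3) of the gene, but 63.5, 95.5 and 164 of its 518, 613 and 1039 counts. Its share was 34.0 ± 4.99% in the second quantification, where Tnfrsf14-205 led with 35.5 ± 6.06%. For Tnfrsf11a, the retained-intron transcript Tnfrsf11a-203 had 7.12, 6.49 and 5.28 TPM and a share of 14.8 ± 1.03%, and 13.8 ± 0.917% in the second quantification, close in all libraries. Tnfrsf10b had too few counts to divide: its coding transcript held 90.8 ± 4.14% in the first quantification and 53.3 ± 4.25% in the second.

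**Figure D3:**
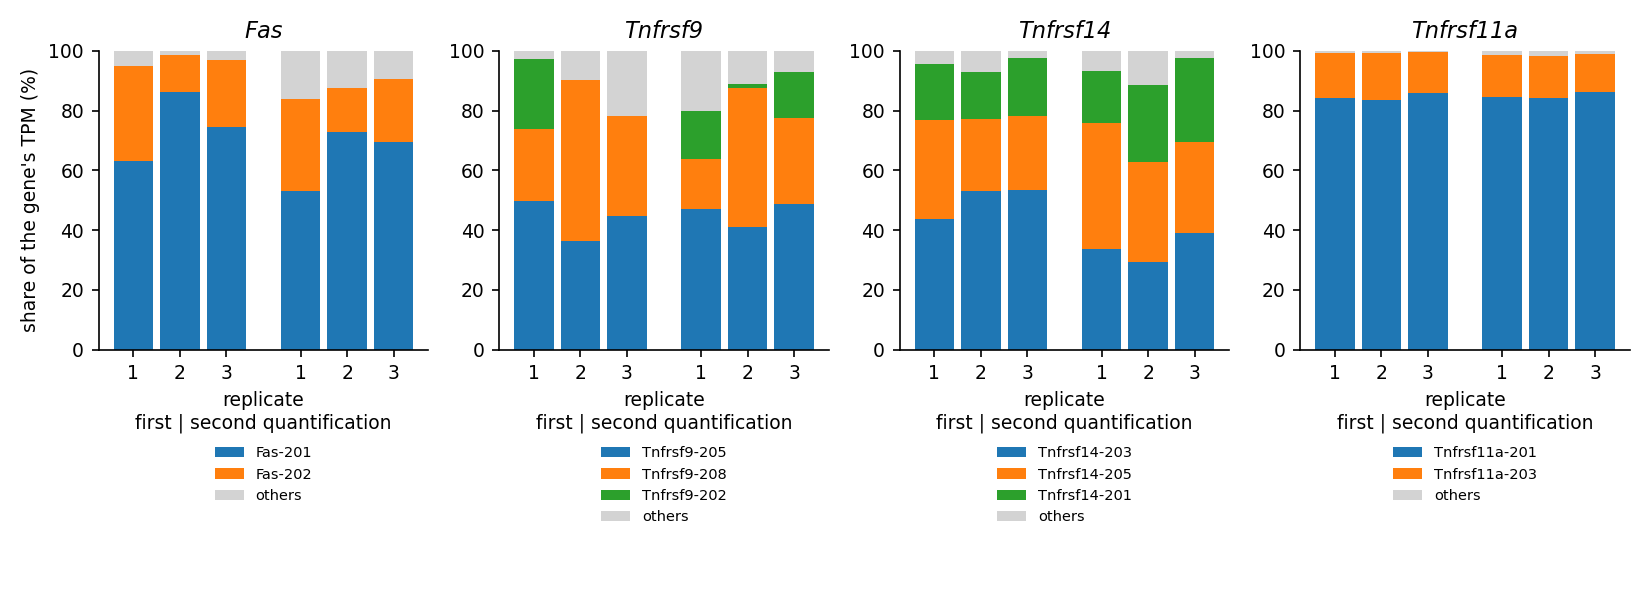
Share of each gene's TPM (%) held by its transcripts in replicates 1, 2 and 3 (bars), for the first and the second quantification, in Fas, Tnfrsf9, Tnfrsf14 and Tnfrsf11a; grey is all transcripts under 10% on average. The share of Fas-202 is highest in replicate 1 in both quantifications, at 31.7% and 30.8%, and the Tnfrsf11a shares are nearly level.

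The libraries differed from each other in most of these genes, as they did in most genes. A chi-square test of expected counts against equal rates, after TMM scaling in edgeR and with Benjamini-Hochberg adjustment over 11611 genes, called 8 of 10 at 0.05, against 77.5% of all genes tested. Tnfrsf12a (adjusted p = 0.514) and Tnfrsf10b (adjusted p = 0.291) were not called. In the second quantification 9 of 10 were called, Tnfrsf10b among them, against 77.7% of genes tested. The test asks whether libraries differ beyond counting noise, not whether conditions differ. Without replicate 2, 4 of 10 were called, Tnfrsf1b, Fas, Tnfrsf11a and Tnfrsf14, and the share of all genes was 51.8%.

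In TMM-scaled CPM, counts scaled to the library total, 1 of the 10 genes, Tnfrsf9, differed by more than 2-fold between its highest and lowest library, against 7.48% of genes tested. Its values were 6.14, 1.75 and 5.16 in replicates 1, 2 and 3, a ratio of 2.95 between the highest and the lowest with a prior of 0.5 CPM (adjusted p = 2.43e-18, chi-square with edgeR's TMM scaling). Without replicate 2 it no longer passed 2-fold. Fas came next, with 52.5, 29.8 and 27.3 CPM and a ratio of 1.91; in TPM its ratio was 2.15, and 2.06 in the second quantification. It was followed by Tnfrsf21 (1.53, highest in replicate 2, and 2.20 in TPM of the second quantification), Tnfrsf1a (1.52) and Ltbr (1.41, both lowest in replicate 2). The median ratio over the 10 genes was 1.34, as over all genes tested. Replicate 2 was the lowest library in CPM for 6 of the 10 genes, against 36.6% of genes tested, but in TPM for 3 of 10 and in TPM of the second quantification for 2 of 10, Tnfrsf1a and Tnfrsf9. The share of all genes lowest in replicate 2 was not computed in TPM. Neither set of TPM was scaled between libraries. From the first to the second, the macrophage marker Cd68 went from 2545 to 1785 TPM in replicate 1 and from 2666 to 2379 TPM in replicate 2. The summed neutrophil markers, 83.3, 714 and 48.4 TPM, moved with the low Tnfrsf9 and Tnfrsf1a and the high Tnfrsf21 of replicate 2. They also moved with the low Ltbr of the first quantification, which was not seen in the unscaled TPM of the second. Their part in those values, and that of the stromal markers, also highest in replicate 2, was not tested.

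The detected genes nearest to Tnfrsf9 in their pattern over the 3 libraries, out of 10026, were Tmem51 (15.0, 5.50 and 12.0 TPM), Sertad3 (38.4, 14.5 and 31.9 TPM) and Tmem173 (43.6, 16.5 and 35.4 TPM). Their largest difference from it in centred log2 level was 0.0355, 0.0400 and 0.0515. With 3 libraries, such closeness is a description of these libraries. Tnfrsf9 also overlaps Camta1, a gene on the opposite strand with 58, 52 and 125 counts; no source used here states strandedness, and reads of the overlap could not be told apart.

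Ligand genes were set against their receptors. Of 18 ligand genes, 9 were detected. Tnf, the ligand of both TNF receptors, led with 1637, 1843 and 1086 TPM. It exceeded both receptors in every library: the log2 ratio to Tnf was -1.11 ± 0.52 for Tnfrsf1b (2.15-fold lower) and -3.22 ± 0.64 for Tnfrsf1a (9.32-fold lower; SD, n = 3). Tnfsf9, the ligand of Tnfrsf9, had 208.5, 286 and 184 TPM, and the log2 ratio of Tnfrsf9 to it was -5.49 ± 1.08 (45.0-fold lower). The ratio was lowest in replicate 2, at -6.74, where Tnfrsf9 was lowest and Tnfsf9 highest.

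Other receptors were also below their ligands. Tnfsf10, which encodes TRAIL, had 53.0, 27.3 and 49.2 TPM against less than 1 TPM of its receptor gene Tnfrsf10b, a log2 ratio of -6.22 ± 0.75. That ratio was -4.86 with a pseudocount of 1 TPM and -5.34 in the second quantification. Tnfsf12, which encodes TWEAK, had 54.4, 53.3 and 74.7 TPM, and the log2 ratio of Tnfrsf12a to it was -2.65 ± 0.33 (6.30-fold lower).

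For Fas, RANK and the LIGHT and lymphotoxin receptors, the receptor was the higher partner. Fasl had 2 counts over all libraries, against 3938 for Fas; per effective length Fas was 2818-fold higher (exact 95% interval 779 to 23274, counting error only). Tnfsf11, which encodes RANK ligand, had 0 counts in every library, and Tnfrsf11a, with 13414 counts, was at least 2121-fold higher per effective length against a floor of 3 counts over the group. Tnfsf14, which encodes LIGHT, was detected at 3.14, 1.74 and 2.33 TPM. Tnfrsf14 lay above it by 4.64 ± 0.43 and Ltbr by 3.99 ± 0.20 (log2; SD, n = 3). Ltb and Lta, the lymphotoxin genes, stayed below 1 TPM in every library, and Ltbr lay above them by 6.06 ± 0.63 and 6.48 ± 0.97 (log2). With 29 counts of Ltb and 30 of Lta, these ratios depend on the pseudocount and were 4.72 and 4.87 at 1 TPM. The ratios to Tnfsf14 were 4.21 and 3.57 at that pseudocount, and Tnfrsf14 without Tnfrsf14-203 lay 3.64 above Tnfsf14.

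**Figure D4:**
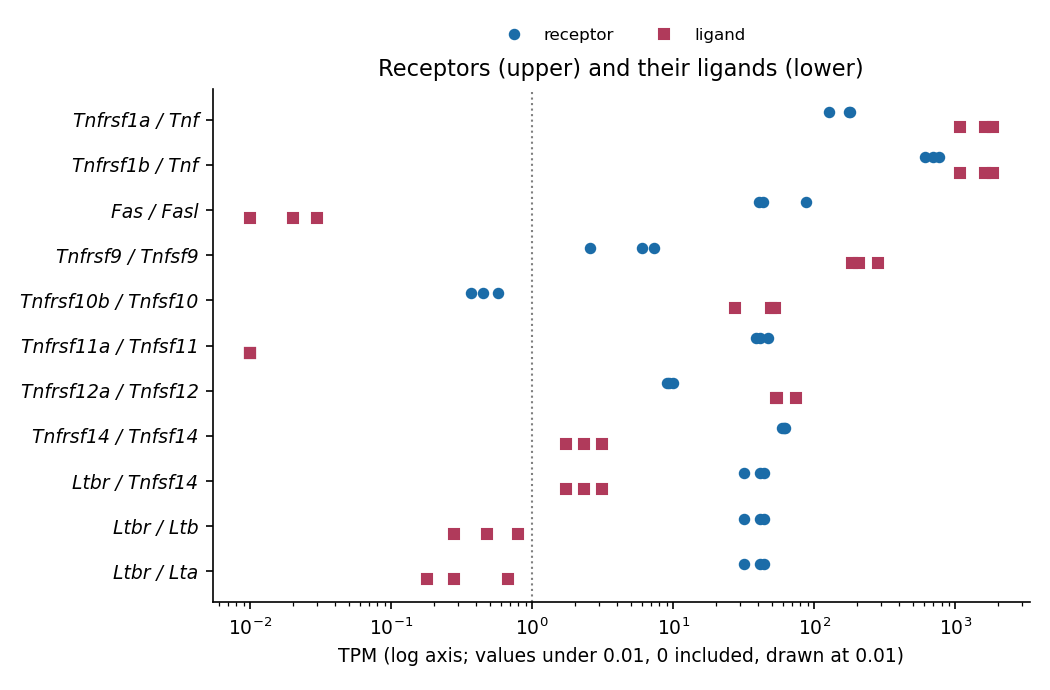
TPM (log axis; values under 0.01 drawn at 0.01) of each receptor gene (circles, upper) and its ligand gene (squares, lower) in the 3 libraries. Ligands lie to the right of Tnfrsf1a, Tnfrsf1b, Tnfrsf9, Tnfrsf10b and Tnfrsf12a and to the left of Fas, Tnfrsf11a, Tnfrsf14 and Ltbr, and no libraries overlap within a pair.

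Among 18 further receptor genes of the family, 5 were detected. The 10 genes described here, 9 of them detected, were chosen with earlier results of these data known, so the lists are not compared. Cd40, the receptor of CD40 ligand, led with 980, 1093 and 955 TPM, above Tnfrsf1b in every library. Tnfrsf13b, which encodes TACI, a receptor of BAFF and APRIL, had 7.93, 17.7 and 14.8 TPM, and Tnfrsf8, which encodes CD30, was the lowest detected, at 2.02, 2.35 and 1.39 TPM. Tnfrsf26 and Tnfrsf23 were detected too; expected counts of Tnfrsf23 and its close paralog Tnfrsf22 were fractional, and the single values of that pair are uncertain. Tnfrsf19 and Edar had 0 counts. Of the ligands, Tnfsf4, which encodes OX40 ligand (32.1, 77.9 and 38.6 TPM), and Tnfsf10 differed by more than 2-fold between libraries, with ratios of 2.26 and 2.02.

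All 19 adaptor and death pathway genes were detected, against 42.7% of protein-coding genes, with a median of 1.32 ± 0.13 (log2; SD, n = 3) above the median detected gene, and 18 of 19 differed between libraries by the chi-square test, against 77.5% of genes tested, and 0 of 19 by more than 2-fold, against 7.48%. Cflar, which encodes the caspase-8 inhibitor c-FLIP, was highest at 411, 489 and 378 TPM. Casp8, the caspase it restrains, had 100.1, 90.1 and 81.1 TPM, Fadd, the adaptor between Fas and caspase-8, 4.34, 5.37 and 6.63 TPM, and Map3k14, the kinase NIK of the alternative NF-kB pathway, 4.54, 4.24 and 7.15 TPM. The level of Cflar was thus above Casp8 and Fadd in every library. Birc3, a ubiquitin ligase that binds TRAF2, had 174, 145 and 144 TPM and Traf1 134, 117 and 105 TPM. All 4 shedding genes were detected: Adam17, the protease that cleaves TNF and both of its receptors, had 118, 101 and 89.4 TPM, and Rhbdf2, which encodes iRhom2, its trafficking partner in macrophages, had 139, 84.2 and 96.9 TPM, above Adam17 in replicates 1 and 3 and below it in replicate 2. Rhbdf1, its paralog, was lowest at 3.85, 3.29 and 4.25 TPM.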

How the data were processed

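The authors deposited, for each of 3 libraries, a gene and a transcript quantification derived from a transcriptome alignment, with expected counts and TPM per the file headers, and the second transcript quantification, derived from the reads and an index, with estimated counts and TPM. The deposited text files name mm10 and annotation M21; aligner, quantifiers and strandedness: not given in the sources used here. Genes were matched by symbol to GENCODE M21 coordinates. Entries that are not mouse genes held 0.117%, 0.0993% and 0.082% of the counts and stayed out of library sizes.

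TPM was compared between genes on log2(TPM + 0.1). Expected counts were rounded, filtered with filterByExpr and scaled by TMM in edgeR 4.0.16 (R 4.3.3), then tested by chi-square against equal rates. The step was tested on simulated data. Such p-values measure only the spread between these libraries, which may be technical. Intervals cover counting error only. Transcript shares are of summed TPM; promoters are RefSeq's.

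The members and lists were chosen with earlier results of these data known. Named genes were all members, the highest and lowest detected of each list, partners of members, genes over 2-fold between libraries, and transcripts at 10% or more; Fas-203, Tnfrsf9-204, Tnfrsf13b, Casp8, Fadd, Birc3, Traf1, Adam17, Camta1, the paralogs and the further marker genes were named after their values were seen. The alternatives were another pseudocount, threshold, scaling and filter, the second quantification, and each library left out.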

Additional observations from a re-analysis of the deposited data

How the results depend on the processing

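Without Tnfrsf14-203, an alternative chosen after seeing the data, Ltbr/Tnfrsf14 turned to 0.35 and Tnfrsf14/Fas turned from 0.18 to -0.83 (log2). Tnfrsf14/Tnfsf14 moved to 3.64 and Tnfrsf1a/Tnfrsf14 to 2.39. Steps between neighbours within their spread changed sign in 3 other cases, Tnfrsf14/Fas without replicate 3 (-0.0056), and Tnfrsf11a/Ltbr (-0.0012) and Tnfrsf21/Tnfrsf9 (-0.045) without replicate 2. No other sign of a ratio changed. The number of genes detected was 9 under all but the threshold of 5 TPM (8), and the list level stayed between 1.40 and 1.60. A pseudocount of 1 TPM moved log2 ratios with a low partner: Fas/Tnfrsf10b to 5.23, Tnfrsf21/Tnfrsf10b to 2.54, Tnfrsf9/Tnfrsf10b to 2.02, Fas/Fasl to 5.76, Tnfrsf10b/Tnfsf10 to -4.86, Tnfrsf11a/Tnfsf11 to 5.43, Tnfrsf14/Tnfsf14 to 4.21, Ltbr/Tnfsf14 to 3.57, Ltbr/Ltb to 4.72 and Ltbr/Lta to 4.87. The second quantification gave 5.85 for Fas/Tnfrsf10b, 2.82 for Tnfrsf21/Tnfrsf10b, -5.34 for Tnfrsf10b/Tnfsf10 and 8.50 for Tnfrsf11a/Tnfsf11; Tnfrsf10b itself was 0.791 TPM there. It put Tnfrsf1b at 570 TPM. Without replicates 1, 2 and 3 in turn, 6, 4 and 8 of the 10 genes differed between libraries, against 66.2%, 51.8% and 59.4% of genes tested. Those over 2-fold were 1, 0 and 1, against 3.57%, 2.17% and 4.72%. The cause of the low values without replicate 2 was not tested. Scaling by library totals or RLE size factors and omitting the filter changed neither count of the 10 genes. Without the filter, however, the share of genes tested that differed between libraries was 49.6% of 20566, against 77.5% of 11611 with it. The share over 2-fold was 5.31%, against 7.48%. The second quantification gave 9 and 1 of the 10 genes. No paired analysis was possible because there is 1 group. Counts limit Tnfrsf10b (101 in all) and the transcript shares of Tnfrsf9 (512 in all).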
